A study of Saccharomyces cerevisiae with 10 samples.

Results

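Transcript levels in budding yeast (*Saccharomyces cerevisiae*) were compared between a late and an early phase of hypo-osmotic shock, a sudden drop in the osmolarity around the cells, to ask which early changes recovered, persisted or grew. The comparison used 8 of the 10 arrays of the series and all 5822 genes of the deposited table. Members were chosen by time: the late group held the 30 and 60 min arrays of both strains (4 arrays), and the early group held the 7 and 15 or 16 min arrays of both strains (4 arrays). The 2 arrays taken before the shift, at 0 min, served as the baseline for the fate of early changes. One strain was labelled ppt1 mutant and delPPT1 (PPT1 encodes a protein phosphatase that dephosphorylates the chaperone Hsp90), and the other was wild type. The mutant was sampled at 0, 7, 15, 30 and 60 min and the wild type at 0, 7, 16, 30 and 60 min, with 1 array each. Every array carried total RNA of 1 sample against a channel called the reference. The growth medium, the size of the shift, the strain background, the number of cultures and any unshifted culture are not stated in the labels. Effects of the shift, of elapsed time and of handling therefore cannot be told apart. Strains and neighbouring times stood in as replicates, so p-values of late against early measure the spread between these 8 arrays, some of which may be technical. The p-values of comparisons with the baseline rest on all 10 arrays, with 1 baseline array per strain.

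When osmolarity drops, water enters the yeast cell and turgor presses on the cell wall. Cells release glycerol through the Fps1 channel, the HOG pathway that drives glycerol synthesis at high osmolarity loses activity, and the Slt2 (Mpk1) kinase of the cell wall integrity pathway is activated within minutes. Growth then resumes at the lower osmolarity, with a new balance of wall synthesis, membrane synthesis and nutrient uptake. In yeast many transcript responses to a shift in osmolarity are transient, which makes the later phase informative about what remains.

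Values are log2 ratios centred on each array's median, likely of sample over reference. The direction is not stated, and with the ratio turned every direction below would turn with it. The arrays held 5440 to 5807 values each. Across genes, which are not independent replicates, arrays correlated at r of 0.595 to 0.76 within the late group, 0.609 to 0.794 within the early group and 0.47 to 0.73 between them. The labels were checked on PPT1 itself. On the arrays labelled ppt1 it read -0.32 and -0.55 late, 0.40 and 0.07 early and 0.10 before the shift, against -0.16 and -0.44 late, -0.21 and 0.07 early and -0.50 before in wild type. At 0, 7 and 15-16 min the labelled mutant thus had no lower PPT1 than wild type, and at 30 and 60 min it read slightly lower, so PPT1 does not separate the strains, and the mutant is called by its label throughout. PPT1 did not pass late against early (log2 difference -0.45 ± 0.14 SE, limma adjusted p = 0.149), nor did its neighbours ASN2 (0.14 ± 0.09) and YGR122W (0.13 ± 0.20). The median of 7 a-cell marker genes lay between 0.41 and 1.26 on the 10 arrays, that of 4 alpha-cell markers between -0.50 and 0.04, and that of 13 sporulation and meiosis genes between -0.41 and -0.07. These are ratios to the reference and not levels, so they do not by themselves name the cell type.

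Between the late and the early phase 43 genes passed, 17 higher late and 26 lower late, which is 0.739% of the 5822 genes tested (0.292% higher and 0.447% lower). The falls were led by FMP48, RCK1, MDH2, FUI1 and OPI3, which were 3.32-fold to 5.49-fold lower late, and the rises by DIP5, CIT2 and TMA10, which were 2.01-fold to 2.55-fold higher late. Nutrient uptake, cell wall and membrane lipid genes were among the falls, and citrate synthases, histones, amino acid permeases and chaperone factors among the rises. The test was limma on 8 arrays with strain as a block, at a Benjamini-Hochberg adjusted p under 0.05. At an unadjusted p under 0.05 there were 1035 genes, 17.8% of those tested. All 43 genes had the same sign in the arrays labelled ppt1 and in wild type taken alone, which the choice of genes on these same arrays largely fixes.

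The count depended on which times were in the fit and on the model. Without the 15-16 min arrays 87 genes passed (18 higher and 69 lower), and in a fit of 5 times and strain to all 10 arrays 188 passed. Without the 60 min arrays 1 gene passed and without the 7 min arrays 3 genes passed. Without single arrays the count was 5 when the ppt1 7 min array was left out, 6 for the ppt1 60 min array, 6 for the wild type 60 min array and 11 for the wild type 7 min array. Of the 43 genes, 5, 6, 6 and 10 remained in those 4 fits. The genes that passed without any 1 of the 8 arrays were FUI1, FUR4, OPI3, MDH2 and HTA1. With quantile normalization, 22 genes were higher late and 17 lower late.

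**Figure D1:**
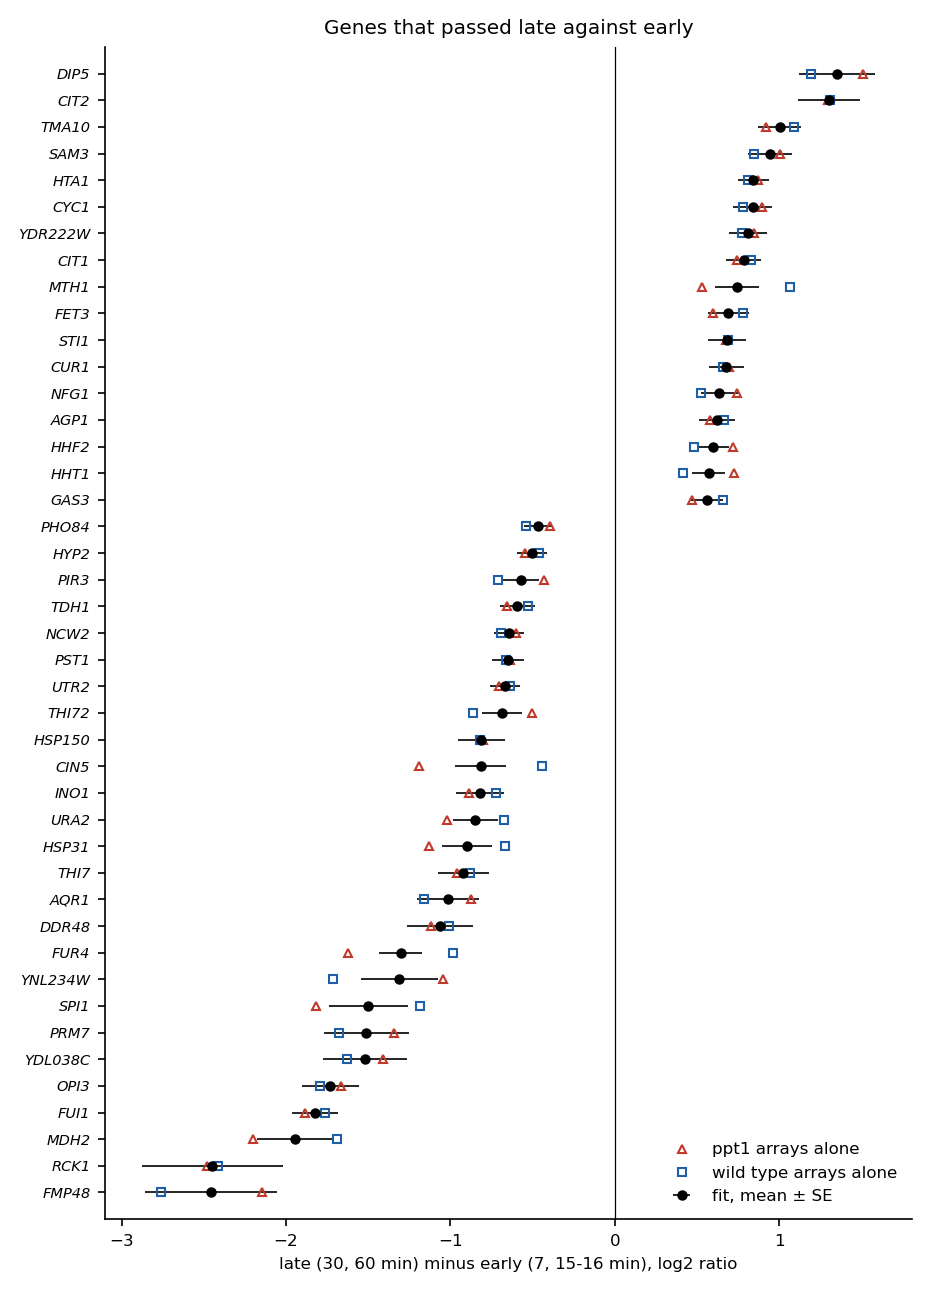
Late minus early (log2 ratio, horizontal axis) for the 43 genes that passed, with the limma estimate ± SE as filled circles, the arrays labelled ppt1 alone as triangles and wild type alone as squares. Both strains lie on the same side of 0 for all 43 genes, from FMP48 at -2.46 to DIP5 at 1.35.

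Of 4926 genes with a value on all 8 arrays, the late and early values did not overlap in 418 (8.49%), with 178 genes above and 240 below. Among the called genes, 39 had all 8 values and 36 of these did not overlap, a description only, since they were called on the same values. The 3 that overlapped were YDL038C, PRM7 and STI1, in which the strains differed in level on every array. The called genes that lacked a value on 1 late or early array were YNL234W, INO1, MTH1 and SAM3, and their fits dropped that array.

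The early phase itself was set against the baseline to find the fate of its changes. Early against before, 311 genes passed (5.34% of those tested), 63 higher (1.08%) and 248 lower (4.26%). Late against before, 845 genes passed (14.5%), 297 higher (5.10%) and 548 lower (9.41%). Without centring, the splits were 102 higher and 210 lower early, and 447 higher and 439 lower late. With quantile normalization 222 genes were higher and 248 lower late against before. The 3 comparisons share arrays, so their values for a gene are not independent of each other.

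Of the 311 early calls, 261 (83.9%) persisted, meaning that they did not pass late against early and passed late against before in the same direction. Both comparisons with the baseline use the same 2 arrays at 0 min, so an error there moves them together, and not passing late against early does not show that a level stayed the same. Recovered genes, which passed late against early in the opposite direction to their early change, numbered 6 (1.93%). Genes that grew, passing late against early in the direction of their early change, numbered 5 (1.61%). A further 39 (12.5%) passed neither later test in a way that placed them, and were counted as undecided. The remaining 32 of the 43 late calls had no early call, and 26 of those 32 passed late against before.

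These numbers rest on the 0 min arrays. Without the wild type 0 min array there were 61 early calls, 57 persisted, 0 recovered and 3 grew, and 309 genes passed late against before. Without the ppt1 0 min array there were 86 early calls, 74 persisted, 2 recovered and 1 grew, and 197 genes passed late against before. Without the wild type 16 min and the ppt1 15 min array there were 202 and 182 early calls, with 171 and 154 persisted and 2 recovered in each. Leaving out the ppt1 7 min array gave 0 recovered and 0 grew, and leaving out either 60 min array gave 1 recovered and 0 grew. Without the wild type 7 min array 3 genes recovered and 2 grew, and without the ppt1 30 min array 2 grew. A further version used 7 min against 0 min for the early call and late against 15-16 min for recovery or growth, which share no array. It gave 172 early calls. Of these 5 recovered (MDH2, URA1, URA4, URA2 and DIP5), 6 grew (RCK1, SPI1, HSP12, YDL038C, PST1 and NCW2) and 140 persisted. The persisted count also needs late against 0 min, which uses the same 0 min and late arrays again, so it is not free of shared arrays. The overlap with the fates above was 1 recovered gene, 4 that grew and 130 that persisted.

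**Figure D2:**
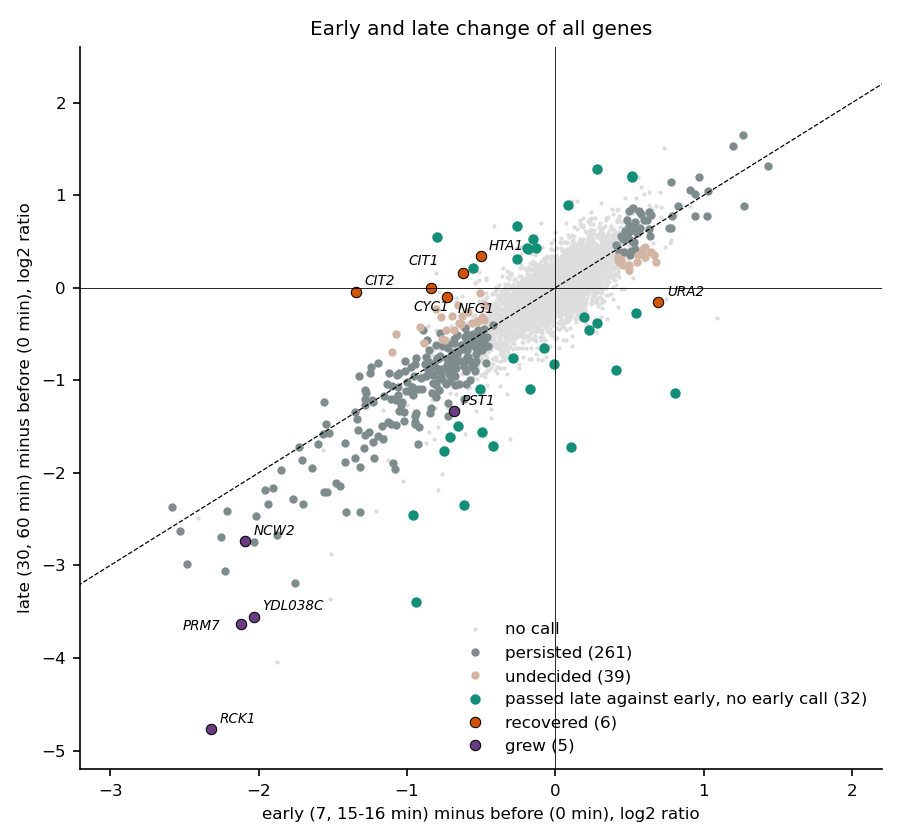
Early minus before (horizontal axis) against late minus before (vertical axis), both log2 ratios, for all genes, coloured by fate. The dashed line marks equal early and late change: the 261 persisted genes lie on both sides of it, up to 1.45 away, the 6 recovered genes lie between -0.15 and 0.34 on the vertical axis, and RCK1, PRM7, YDL038C, NCW2 and PST1 lie below it. The 32 green genes passed late against early with no early call.

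Of the 6 recovered genes 0 passed late against before, beside 14.5% of all genes. In so few genes this count is near that share and does not show a return to baseline. Their late minus before ranged from -0.15 for URA2 to 0.34 for HTA1. CIT2, the peroxisomal citrate synthase of the glyoxylate cycle and a classical target of mitochondria-to-nucleus signalling, had late values of 0.81 and 1.28 on arrays labelled ppt1 and 0.61 and 1.44 in wild type. Its early values were -0.26 and -0.24 (ppt1) and -0.56 and -0.02 (wild type), and before the shift it read 0.56 (ppt1) and 1.59 (wild type). All 4 late values lay above all 4 early values, and the wild type baseline was the highest of the 10. CIT2 was 2.47-fold higher late than early (log2 difference 1.30 ± 0.19, adjusted p = 0.0198) after an early fall of 1.34 ± 0.28, and late minus before was -0.04 ± 0.28. That last value averages opposite strain differences. Both late values lay above the 0 min value in ppt1 and below it in wild type.

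CIT1, the mitochondrial citrate synthase of the TCA cycle, followed the same order at a smaller size. Its late values were 0.74 and 0.93 (ppt1) and 1.38 and 1.26 (wild type), against -0.07 and 0.25 (ppt1) and 0.59 and 0.39 (wild type) early and 0.50 (ppt1) and 1.33 (wild type) before. The groups did not overlap, and the wild type read higher on each array (late minus early 0.78 ± 0.11, adjusted p = 0.0167). CYC1, which encodes iso-1-cytochrome c of the respiratory chain, read -0.08 and 0.29 (ppt1) and -0.29 and 0.03 (wild type) late, against -0.78 and -0.80 (ppt1) and -1.04 and -0.79 (wild type) early and -0.36 (ppt1) and 0.34 (wild type) before. Early values of CYC1 were low on all 4 arrays while the 2 baselines differed by strain (late minus early 0.84 ± 0.12, adjusted p = 0.0167). The late values of CYC1 lay above the 0 min value in ppt1 and below it in wild type.

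The TCA cycle and respiration list, of which these 3 genes are members, had 49 measured genes with 3 rises and 1 fall (8.16%). Over all genes 0.739% passed. The list's median late minus early was 0.11, beside a median of -0.01 over all genes. The enzymes that follow citrate synthase in the cycle did not pass: aconitase ACO1 had 0.61 ± 0.16 and the isocitrate dehydrogenase subunits IDH1 and IDH2 had 0.60 ± 0.20 and 0.50 ± 0.18 (adjusted p between 0.111 and 0.203). The 1 fall was MDH2, the cytosolic malate dehydrogenase of gluconeogenesis. It read -0.10 and -0.89 (ppt1) and 0.10 and -0.80 (wild type) late, against 1.90 and 1.5 (ppt1) and 1.48 and 1.20 (wild type) early and 1.12 (ppt1) and 0.30 (wild type) before. MDH2 was highest on the 4 early arrays and lowest at 60 min in both strains, and late was 3.85-fold lower than early (log2 difference -1.94 ± 0.23, adjusted p = 0.00832). Its early difference from the baseline did not pass (0.81 ± 0.29, adjusted p = 0.141), and late against before did (-1.14 ± 0.29, adjusted p = 0.0243).

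Among histone genes, whose transcripts accumulate in S phase, 3 rose late. HTA1, a gene of histone H2A, was the recovered member, with 0.01 and 0.22 (ppt1) and -0.46 and -0.23 (wild type) late, against -0.74 and -0.77 (ppt1) and -1.15 and -1.16 (wild type) early and -0.32 (ppt1) and -0.58 (wild type) before. The late values lay above the early ones without overlap, and above the 0 min value of the same strain (late minus early 0.84 ± 0.09, adjusted p = 0.00594). HHF2 of histone H4 (0.60 ± 0.09, adjusted p = 0.0293) and HHT1 of histone H3 (0.57 ± 0.10, adjusted p = 0.0372) rose late with no early call, and HHT1 did not pass with quantile normalization or with scaling to a common spread. All 9 measured histone genes had a positive late minus early, and the median was 0.53. Of these 3 passed as rises (33.3%), beside 0.292% of all genes. The other 6 ranged from 0.27 for HHO1 to 0.57 for HTA2. Histone genes come in near-identical pairs, so signal may be shared between copies. In the list of 35 G1/S genes 0 passed late against early, with a median of 0.16 and 30 members positive. Late against before, 14 of the 35 passed as rises, beside 5.10% of all genes.

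NFG1 also recovered. It read 0.43 and 0.09 (ppt1) and 0.18 and -0.03 (wild type) late, against -0.54 and -0.43 (ppt1) and -0.53 and -0.38 (wild type) early and 0.18 (ppt1) and 0.34 (wild type) before. Early values sat close together in both strains, below all late values (late minus early 0.64 ± 0.11, adjusted p = 0.0372).

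URA2 was the 1 early rise that recovered. It encodes the bifunctional enzyme that catalyses the first steps of pyrimidine synthesis, and read 0.09 and -0.27 (ppt1) and -0.02 and -0.54 (wild type) late, against 0.88 and 0.97 (ppt1) and 0.39 and 0.40 (wild type) early and 0.01 (ppt1) and -0.08 (wild type) before. The early values were all above the baseline, the 30 min values were close to it and the 60 min values lay under it (late minus early -0.85 ± 0.14, adjusted p = 0.0332; early minus before 0.69 ± 0.17, adjusted p = 0.0345).

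Uracil and uridine permeases fell late without an early call. FUI1, the uridine permease, read -1.03 and -1.33 (ppt1) and -1.26 and -1.82 (wild type) late, against 0.83 and 0.57 (ppt1) and 0.33 and 0.11 (wild type) early and 0.82 (ppt1) and -0.11 (wild type) before. Late was 3.54-fold lower than early, the lowest adjusted p of the comparison (-1.82 ± 0.14, adjusted p = 0.000639). FUR4, the uracil permease, read -0.61 and -0.57 (ppt1) and -0.37 and -0.49 (wild type) late, against 1.0 and 1.06 (ppt1) and 0.62 and 0.49 (wild type) early and 0.62 (ppt1) and 0.15 (wild type) before (-1.30 ± 0.13, adjusted p = 0.00304). Both permeases stayed near or above their 0 min value through 15-16 min and were below it on all 4 late arrays. Among the pyrimidine synthesis genes that did not pass, the dihydroorotate dehydrogenase URA1 had -1.41 ± 0.37 (adjusted p = 0.111) and the dihydroorotase URA4 had -0.87 ± 0.19 (adjusted p = 0.0611). For URA1 the 30 min values were 0.27 (ppt1) and 0.15 (wild type) and the 60 min values -1.32 (ppt1) and -1.45 (wild type), so the late arrays themselves spread widely. Of 15 measured genes of pyrimidine synthesis and uptake, 3 fell (20.0%, beside 0.447% of all genes) and 0 rose, with a median of -0.25.

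Transporters of the same family for other substrates fell too. THI7, the thiamine transporter, had 0.28 and 0.14 (ppt1) and -0.06 and -0.03 (wild type) late, against 1.49 and 0.85 (ppt1) and 1.11 and 0.56 (wild type) early (-0.92 ± 0.16, adjusted p = 0.0345). Its relative THI72 had 0.00 and -0.25 (ppt1) and -0.56 and -0.83 (wild type) late, against 0.48 and 0.28 (ppt1) and 0.25 and 0.08 (wild type) early (-0.69 ± 0.12, adjusted p = 0.0372). In both genes all late values were below all early values. Of the 7 measured thiamine and nucleobase permeases 4 fell (57.1%, beside 0.447% of all genes), and the median was -0.69. The other 3 were the pyridoxine transporter TPN1 and the nicotinamide riboside transporter NRT1 at -0.35 each, and the allantoin permease DAL4 at -0.02. This list and that of pyrimidine genes were drawn up after the values had been seen. THI7 and THI72 are close in sequence, and cross-hybridisation between such relatives was not tested.

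Amino acid permeases included 3 rises. DIP5, the permease for glutamate and aspartate, read 0.34 and 1.30 (ppt1) and 0.59 and 1.44 (wild type) late, against -0.85 and -0.54 (ppt1) and -0.31 and -0.05 (wild type) early and 0.12 (ppt1) and 0.60 (wild type) before. The 60 min values were the highest in both strains (1.35 ± 0.23, 2.55-fold, adjusted p = 0.0349). The S-adenosylmethionine permease SAM3 had 0.94 ± 0.14 (adjusted p = 0.0255) and the broad-range permease AGP1 had 0.62 ± 0.11 (adjusted p = 0.0357). Of 19 measured amino acid permeases 3 rose (15.8%, beside 0.292% of all genes) and 0 fell. A positive difference was seen in 16, with a median of 0.28. This list too was drawn up after the values had been seen.

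**Figure D3:**
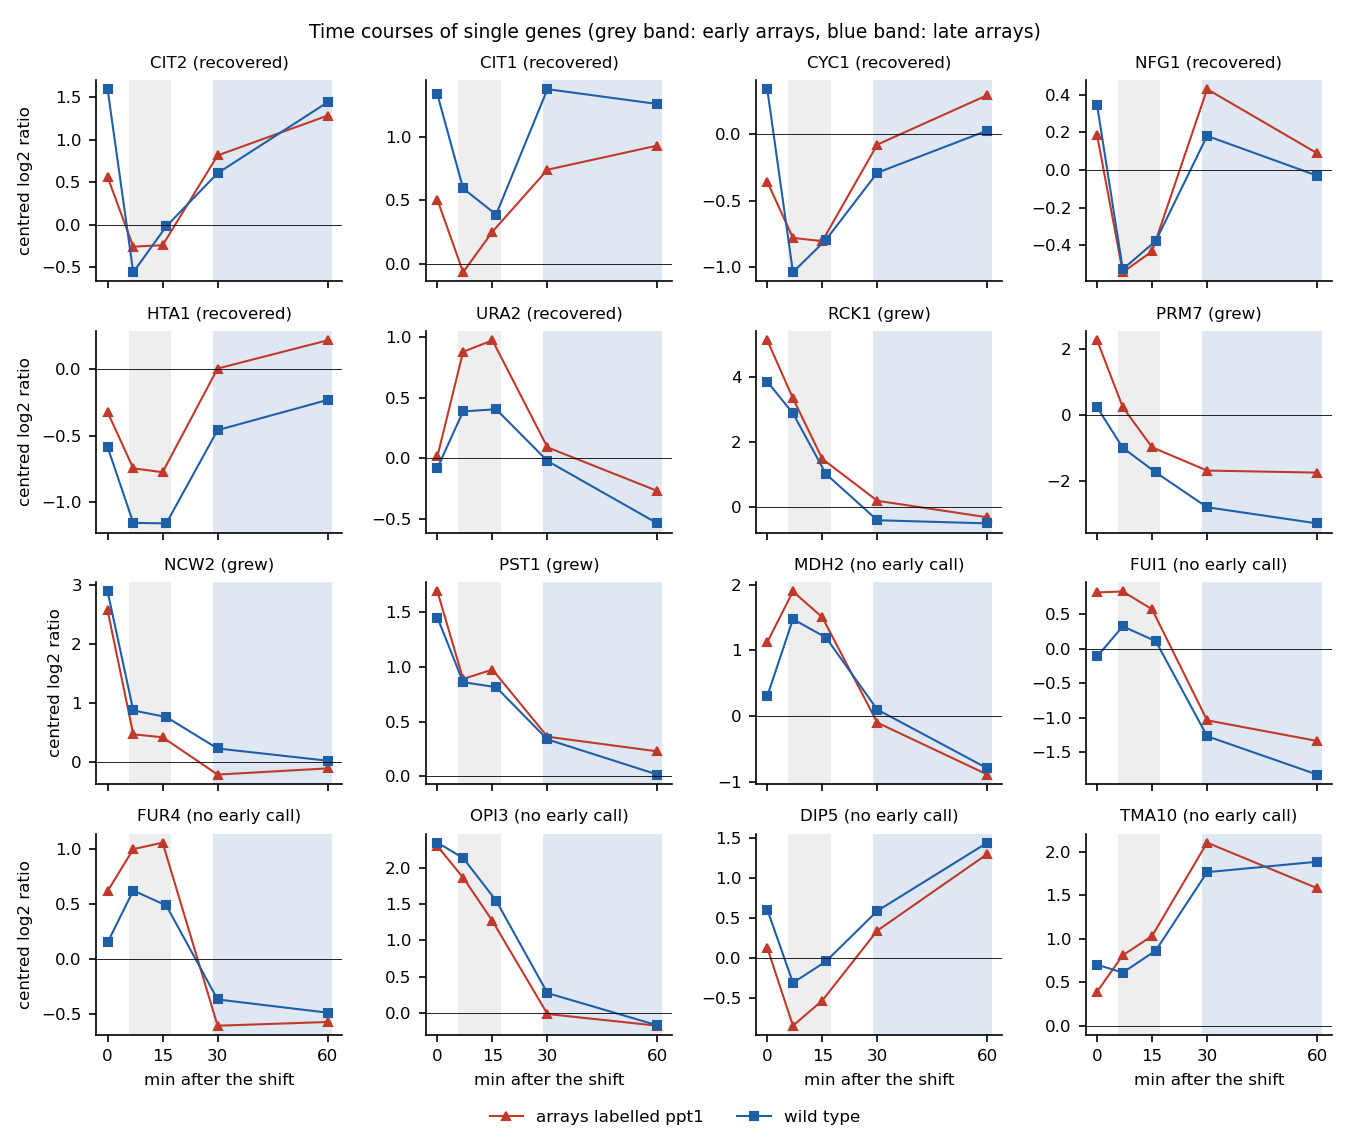
Centred log2 ratio (vertical axis, scaled per gene) against minutes after the shift for 16 genes, with arrays labelled ppt1 as triangles and wild type as squares, 1 array per point. In the 6 recovered genes the late arrays lie on the 0 min side of the early arrays. HTA1 lies above its 0 min level late in both strains, and CIT2, CIT1 and CYC1 do so on the ppt1 arrays. URA2 lies below its 0 min level at 60 min in both strains. RCK1, PRM7, NCW2 and PST1 are lower late than early, and FUI1, FUR4, MDH2 and OPI3 are lowest on the late arrays.

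All 5 changes that grew were falls, as were 248 of all 311 early calls. RCK1, a protein kinase linked to the oxidative stress response, had late values of 0.18 and -0.33 (ppt1) and -0.41 and -0.51 (wild type). Its early values were 3.35 and 1.48 (ppt1) and 2.88 and 1.01 (wild type), and before the shift it read 5.14 (ppt1) and 3.86 (wild type). RCK1 was lower at 15-16 min than at 7 min, and lower again late (late minus early -2.45 ± 0.43, 5.46-fold, adjusted p = 0.0372). Late minus before was -4.77 ± 0.51, so the early phase held about as much of the fall (-2.32 ± 0.51) as the late phase. RCK1 did not pass with limma's robust option.

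PRM7, a gene induced by pheromone, and its neighbour by systematic name, YDL038C, fell together. PRM7 read -1.68 and -1.74 (ppt1) and -2.79 and -3.28 (wild type) late, against 0.24 and -0.97 (ppt1) and -0.99 and -1.74 (wild type) early and 2.27 (ppt1) and 0.24 (wild type) before. The mutant read higher than wild type at every time, so the groups overlapped across strains but not within a strain (-1.51 ± 0.26, adjusted p = 0.0345). YDL038C had nearly the same difference (-1.52 ± 0.25, adjusted p = 0.0345), and whether the 2 probes read 1 transcript was not tested. Neither passed with quantile normalization.

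NCW2 and PST1 encode GPI-anchored cell wall proteins. NCW2 read -0.20 and -0.10 (ppt1) and 0.23 and 0.03 (wild type) late, against 0.47 and 0.42 (ppt1) and 0.88 and 0.77 (wild type) early and 2.57 (ppt1) and 2.88 (wild type) before. Most of its fall came early (-2.09 ± 0.11) and a smaller part late (-0.65 ± 0.09, adjusted p = 0.0167). PST1 read 0.36 and 0.23 (ppt1) and 0.34 and 0.01 (wild type) late, against 0.89 and 0.97 (ppt1) and 0.86 and 0.81 (wild type) early and 1.69 (ppt1) and 1.45 (wild type) before. Its fall was of about equal size in the phases (-0.65 ± 0.10 late and -0.69 ± 0.12 early, adjusted p = 0.0251 for the late part).

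Other cell wall genes fell late without an early call. SPI1, a GPI-anchored wall protein, had 1.90 and 0.94 (ppt1) and 1.75 and 0.90 (wild type) late, against 3.32 and 3.15 (ppt1) and 2.58 and 2.43 (wild type) early and 3.98 (ppt1) and 3.68 (wild type) before (-1.50 ± 0.24, adjusted p = 0.0323). The wall proteins of the PIR family HSP150 (-0.81 ± 0.14, adjusted p = 0.0372) and PIR3 (-0.57 ± 0.11, adjusted p = 0.0495) stayed near their 0 min level early, with early minus before of -0.01 ± 0.17 and -0.08 ± 0.13. PIR3 also lost its call without centring, and SPI1, HSP150 and PIR3 lost theirs with quantile normalization. UTR2, a chitin transglycosylase, fell by 0.67 ± 0.09 (adjusted p = 0.0167), while GAS3, a putative glucanosyltransferase of the wall, rose by 0.56 ± 0.09 (adjusted p = 0.0345).

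Of 30 measured targets and components of the cell wall integrity pathway, 5 fell late against early (16.7%, beside 0.447% of all genes) and 0 rose. The median was -0.32 and 24 members were negative. The median of the list on single arrays was 0.36 and 0.16 (ppt1) and 0.40 and 0.13 (wild type) late, against 0.60 and 0.47 (ppt1) and 0.67 and 0.51 (wild type) early and 1.26 (ppt1) and 1.10 (wild type) before. The kinase gene SLT2 had -0.66 and did not pass, and RLM1, the transcription factor below it, had -0.32. Late against before, 20 of the 30 fell and 0 rose, beside 9.41% lower and 5.10% higher over all genes.

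The falls included 2 genes of membrane lipid synthesis. OPI3, the methyltransferase of the last steps of phosphatidylcholine synthesis, read -0.02 and -0.18 (ppt1) and 0.27 and -0.17 (wild type) late, against 1.87 and 1.27 (ppt1) and 2.14 and 1.55 (wild type) early and 2.30 (ppt1) and 2.35 (wild type) before. The 4 late values lay within a narrow range near 0 and well under the early ones (-1.73 ± 0.17, adjusted p = 0.00304). INO1, inositol-3-phosphate synthase, fell by 0.82 ± 0.15 (adjusted p = 0.0458), a call that was lost with scaling to a common spread. The phosphatidylserine synthase CHO1 had -0.65 ± 0.21 and CHO2, the enzyme before OPI3, had -0.40 ± 0.17, and neither passed. Of 23 measured genes of fatty acid and phospholipid synthesis 2 fell (8.70%, beside 0.447% of all genes) and 0 rose, with a median of -0.04.

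FMP48, which encodes a mitochondrial protein, had the largest difference. It read 1.82 and 0.38 (ppt1) and 1.15 and 0.49 (wild type) late, against 3.46 and 3.04 (ppt1) and 4.48 and 2.69 (wild type) early and 4.48 (ppt1) and 4.23 (wild type) before. The wild type 7 min value of FMP48 was near the baseline, the other 3 early values were at least 2-fold below the 0 min value of their strain, and the 60 min values were the lowest in both strains (-2.46 ± 0.40, adjusted p = 0.0332). DDR48 (-1.06 ± 0.20) and HSP31 (-0.90 ± 0.15) are stress-induced genes, AQR1 (-1.02 ± 0.19) exports drugs and amino acids, and CIN5 (-0.82 ± 0.15) is a bZIP transcription factor. YNL234W, a haem protein related to globins, had -1.31 ± 0.23 over 7 values. These 5 genes passed with adjusted p between 0.0345 and 0.0466, and with scaling to a common spread HSP31 alone of them did. Among the smaller falls were the phosphate transporter PHO84 (-0.47 ± 0.09), the translation factor gene HYP2 (-0.51 ± 0.09) and the glyceraldehyde-3-phosphate dehydrogenase TDH1 (-0.59 ± 0.11). HYP2 and TDH1 did not pass with quantile normalization or with that scaling.

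Among the rises without an early call, TMA10, a ribosome-associated protein, read 2.10 and 1.58 (ppt1) and 1.76 and 1.88 (wild type) late, against 0.81 and 1.03 (ppt1) and 0.61 and 0.86 (wild type) early and 0.39 (ppt1) and 0.70 (wild type) before. All late values were above all others (1.0 ± 0.13, adjusted p = 0.0147). YDR222W had late values of 0.44 and 0.42 (ppt1) and 0.42 and 0.42 (wild type), the narrowest late range of the genes described, against -0.49 and -0.33 (ppt1) and -0.59 and -0.11 (wild type) early (0.81 ± 0.11, adjusted p = 0.0167). FET3, the multicopper oxidase of high-affinity iron uptake, had 0.69 ± 0.12 (adjusted p = 0.0372) and MTH1, a repressor in glucose sensing, had 0.74 ± 0.13 (adjusted p = 0.0457). FET3 was the 1 member of 24 measured iron regulon genes that passed (4.17%, beside 0.739% of all genes), with a list median of 0.19.

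Chaperone factors rose in part. STI1, an Hsp90 co-chaperone, read 0.50 and 0.46 (ppt1) and 1.24 and 1.66 (wild type) late, against -0.34 and -0.05 (ppt1) and 0.67 and 0.85 (wild type) early and -0.02 (ppt1) and 0.89 (wild type) before. The wild type read higher at each time, and within each strain the late values lay above the early ones (0.68 ± 0.12, adjusted p = 0.0345). CUR1, a sorting factor for misfolded proteins, rose by 0.68 ± 0.11 (adjusted p = 0.0293). The Hsp90 genes HSC82 (0.60 ± 0.13, adjusted p = 0.0629) and HSP82 (0.68 ± 0.15, adjusted p = 0.0698) and the Hsp40 gene SIS1 (0.83 ± 0.21, adjusted p = 0.0886) did not pass. Of 28 measured genes of the Hsp90 and Hsf1 list 1 rose (3.57%, beside 0.292% of all genes) and 0 fell, with a median of 0.13. HSC82 and HSP82 are close in sequence, so their signals may be shared.

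The persisted group held mostly falls, as did the early calls as a whole. Early falls made up 215 of the 261 and early rises 46, beside 248 falls and 63 rises among all 311 early calls. The median late minus early in the persisted group was -0.08. RSB1, which encodes a sphingoid base transporter of the plasma membrane, read -0.45 and -0.18 (ppt1) and -0.74 and -0.07 (wild type) late, against -0.79 and -0.99 (ppt1) and -0.35 and -0.18 (wild type) early and 1.94 (ppt1) and 2.07 (wild type) before. It had the largest early change of the persisted genes (-2.58 ± 0.21) and a late minus before of -2.37 ± 0.21. CMK2, a calmodulin-dependent kinase and a target of the calcineurin factor Crz1, stayed at -0.03 and 0.40 (ppt1) and 0.15 and 0.32 (wild type) late, against 0.46 and 0.18 (ppt1) and 0.69 and 0.33 (wild type) early and 2.43 (ppt1) and 2.81 (wild type) before. In both genes every early and late value lay below both 0 min values, a description only, since they were chosen on these same values.

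In other persisted genes the spread within a phase was wide. ADE2 of purine synthesis was at 1.19 (ppt1) and 1.41 (wild type) at 7 min but at -0.23 (ppt1) and -0.75 (wild type) at 15-16 min, and its late minus early of -0.84 ± 0.41 did not pass (adjusted p = 0.329). The folate enzyme MTD1 (early minus before -2.26 ± 0.26, late minus before -2.69 ± 0.26), the sulfur assimilation enzyme MET17 (-2.48 ± 0.46 and -2.98 ± 0.50) and YOR338W (-2.53 ± 0.38 and -2.63 ± 0.38) were the others among the 6 largest. The early rises that persisted included HRP1, ERG3 and CAR1, named after their values were seen, with early minus before of 1.43 ± 0.19, 1.26 ± 0.16 and 1.20 ± 0.12. CAR1 is arginase, ERG3 a sterol desaturase of ergosterol synthesis, and HRP1 a factor of mRNA cleavage and polyadenylation.

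Among all early calls 83.9% persisted, and the osmotic and stress lists are read against that share. Over all genes tested 4.26% fell early and 0.739% passed late against early. In the HOG pathway and glycerol list 7 of 22 measured genes fell early, and all 7 persisted. In this list 0 passed late against early, which is near the share over all genes. GPD1, the glycerol-3-phosphate dehydrogenase that makes glycerol at high osmolarity, read 0.71 and 1.03 (ppt1) and 0.91 and 1.60 (wild type) late, against 0.18 and 0.71 (ppt1) and 1.09 and 0.96 (wild type) early and 1.81 (ppt1) and 2.16 (wild type) before. Its late minus early of 0.33 ± 0.17 did not pass (adjusted p = 0.352), and late minus before was -0.92 ± 0.20. GPP2, the glycerol phosphatase that follows it, had an early minus before of -1.48 ± 0.28 and a late minus before of -2.11 ± 0.28. In the general stress response list 10 of 28 genes fell early, of which 8 persisted and 2 were undecided, and DDR48 alone passed late against early. In the calcineurin list 6 of 14 fell early and all 6 persisted.

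The largest lists had small differences and no calls. Of 51 measured ribosome biogenesis genes 49 had a negative late minus early, with a median of -0.24, and 0 passed. Of 135 cytosolic ribosomal protein genes 121 had a positive difference, with a median of 0.14, and 0 passed. For the ribosomal protein genes the median was 0.25 in the arrays labelled ppt1 and 0.04 in wild type, and for ribosome biogenesis -0.19 and -0.28. The 2 medians kept these signs without centring, with quantile normalization and with scaling to a common spread. Members of such lists are not independent of each other.

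**Figure D4:**
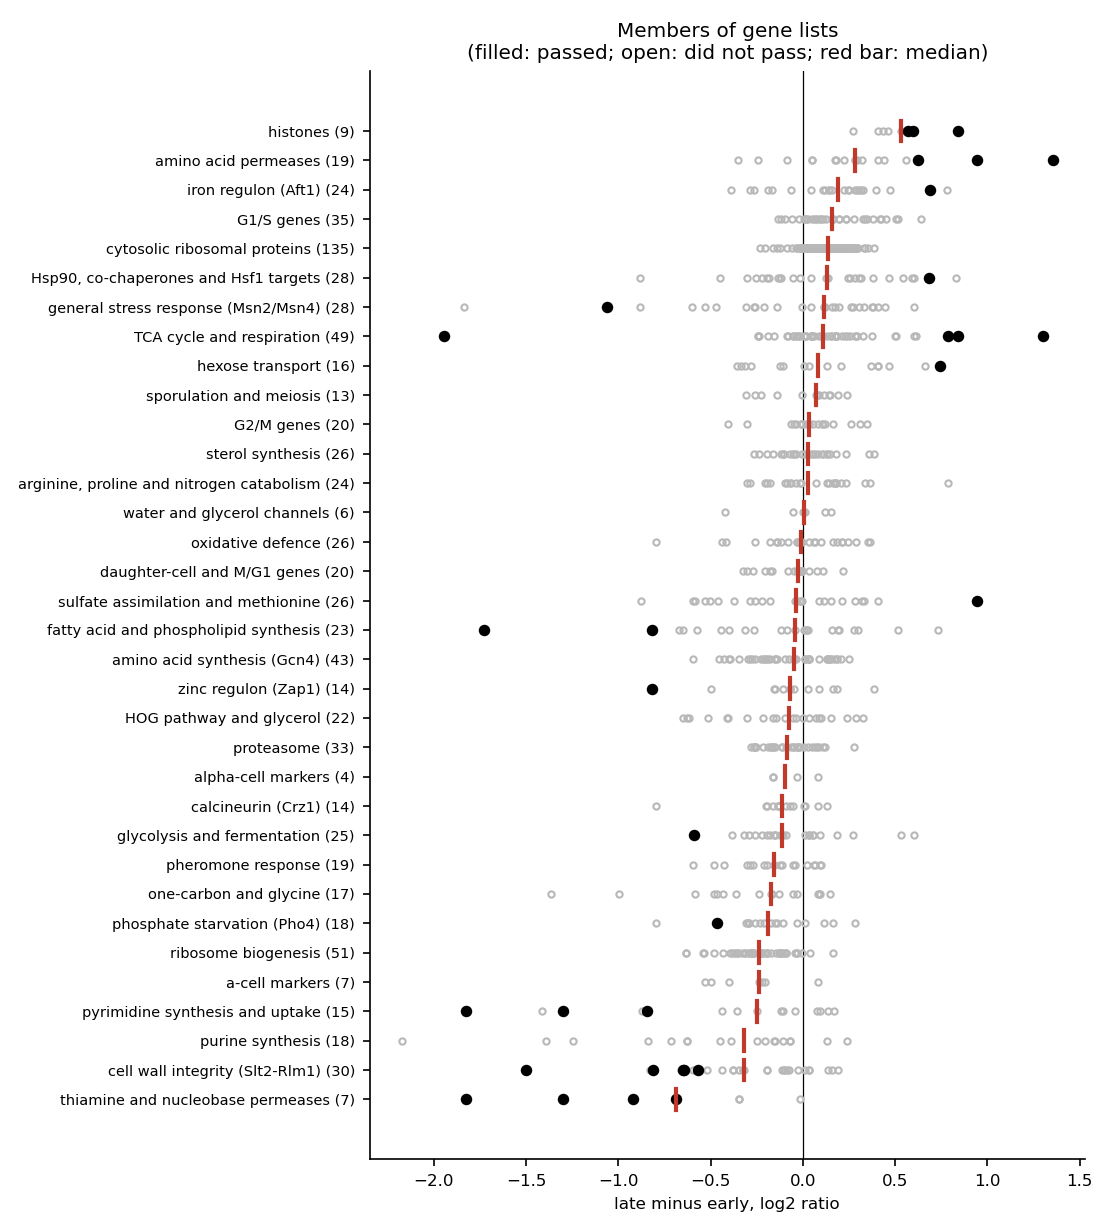
Late minus early (log2 ratio, horizontal axis) of each measured member of 34 gene lists, with the number measured in brackets, filled circles for genes that passed and a red bar at the list median. The histone list lies wholly above 0, the thiamine and nucleobase permeases at or below it, and the cell wall integrity list has 5 filled circles, all below 0.

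The difference between strains in late minus early was tested directly, as an interaction of strain and phase. Of 5790 genes 0 passed with limma (0%), and 481 had an unadjusted p under 0.05 (8.31%). Leaving out the wild type 7 min or the wild type 16 min array gave 1 gene. In the full fit on 8 arrays each strain had 2 arrays a phase, so the interaction test had less precision than the pooled one. The lowest p values belonged to YBR174C, ALG13, COG7, MSL1 and YNL092W, all with a ppt1 minus wild type difference below 0. YBR174C read -1.66 and -1.22 (ppt1) and -0.64 and -0.25 (wild type) late, against -0.32 and -0.31 (ppt1) and -1.50 and -1.32 (wild type) early (interaction -2.09 ± 0.26, adjusted p = 0.0956). COG7, a subunit of a Golgi tethering complex, had -2.10 ± 0.32 (adjusted p = 0.15), and ALG13, of N-glycan synthesis, had -1.65 ± 0.23 (adjusted p = 0.135). MSL1, a protein of the U2 small nuclear RNP, had -1.58 ± 0.23 and YNL092W had -1.31 ± 0.20, each with 1 value missing.

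At a fixed 2-fold with no test, 55 genes moved on the arrays labelled ppt1 (0.950% of 5790, 7 higher late and 48 lower) and 35 in wild type (0.604%, 11 higher and 24 lower). Of these, 20 moved the same way in both, which is 36.4% of the ppt1 genes and 57.1% of the wild type genes, and 2 moved opposite ways. Across all 5790 genes 3399 (58.7%) had the same sign in both strains, and r across genes was 0.303.

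**Figure D5:**
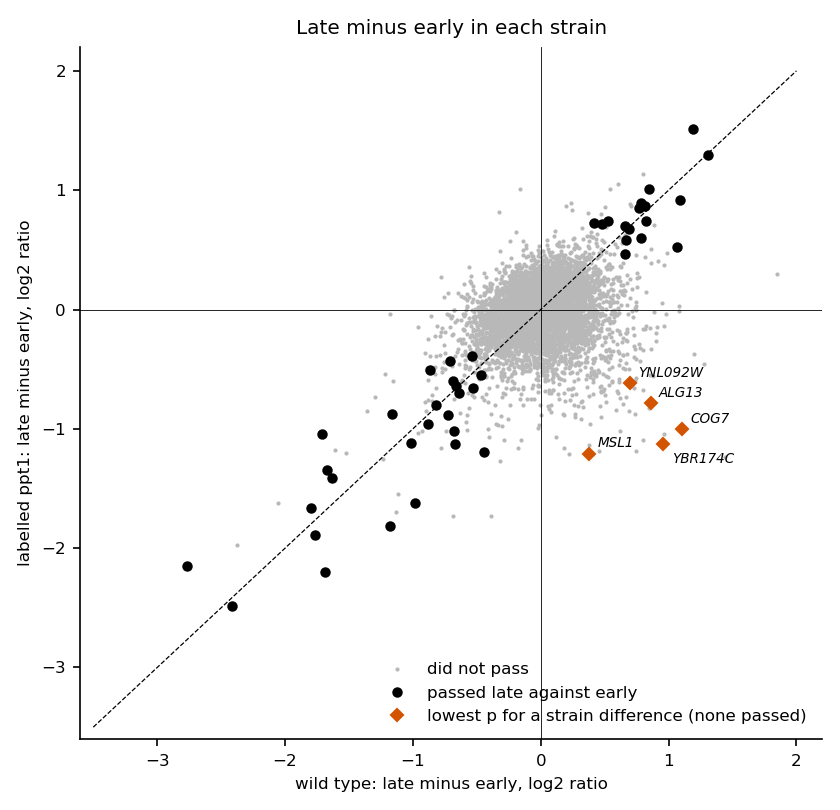
Late minus early (log2 ratio) in wild type (horizontal axis) and on the arrays labelled ppt1 (vertical axis), with the 43 genes that passed as black circles and the 5 genes with the lowest p for a strain difference as orange diamonds. The black circles have the same sign in both strains, some of them off the dashed line of equal change (CIN5 at -0.44 in wild type and -1.19 in ppt1). The diamonds lie in the quadrant that is higher late in wild type and lower late in ppt1. Both placements largely follow from the choice of genes on these same arrays.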

How the data were processed

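The authors deposited 1 table of log2 ratios of 2 channels per gene and array, from 10 arrays of total RNA. The base was taken as 2. Its base, the dyes, the platform, the background correction and the normalization are not given in the sources used, and the depth of signal over background is unknown. Missing values made up 1.81% of the table, and 4901 genes had all 10. Of the systematic names, 5358 matched a RefSeq gene table (assembly R64) and 464 did not. The median of each array was subtracted. Fits were made with limma 3.58.1 in R 4.3.3: late against early with strain as a block on 8 arrays (5 residual degrees of freedom), before, early and late with strain on 10 arrays, and an interaction with strain on 8. Errors are SE, and all other differences are medians or values without a test. A call is a Benjamini-Hochberg adjusted p under 0.05. The script was tested on simulated arrays.

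The groups, members and 35 gene lists were chosen with earlier results of these data known, and 3 lists (pyrimidine genes, thiamine and nucleobase permeases, amino acid permeases) after the values of this comparison were seen. Genes were named by rule: the 15 largest rises and 15 largest falls that passed with 8 values and 1 direction in both strains, the 6 largest early changes in each fate, up to 4 passing members of each list, the 5 lowest interaction p values, and PPT1 with its neighbours. Other genes in the text were taken from the lists for their role. Alternatives covered centring, filters, fits, times, strains and single arrays. Promoter motifs were not analysed here.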

Additional observations from a re-analysis of the deposited data

Results flagged for a closer look

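A gap that was wide relative to the range of its group of 4 arrays stood out in 2 of 107 groups examined, where chance gives about 1 in 20. For YDR222W the late ppt1 30 min array read 0.44 while the other late arrays read 0.42 each. That gap is small in size and stood out because the other values nearly coincide. For CYC1 the early wild type 7 min array read -1.04, below the other early arrays.

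Among the genes named here there were 4, of which 3 were named for a low interaction p, in which every late array of the strain labelled ppt1 lay below its early arrays while every late array of wild type lay above its own. MSL1 and YNL092W, each lacking 1 value, had the same order on the values they have. Over all 4926 genes with 8 values the same order held in 179 (3.63%) and the opposite one in 160. The ppt1 minus wild type difference in late minus early was -2.09 for YBR174C, -2.10 for COG7, -1.65 for ALG13 and -0.95 for YGR122W, a neighbour of PPT1. The test of the difference itself, limma's interaction, passed for none of them (adjusted p = 0.0956, 0.15, 0.135 and 0.413).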

How the results depend on the processing

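The majority of calls turned to higher late in late against early with quantile normalization (22 higher, 17 lower) and in late against before without centring (447 higher, 439 lower). The 43 late against early calls became 85 with genes that had all 10 values, 19 with no strain term, 83 in the 10-array fit with group and strain, 188 in the 10-array fit with 5 times, 1 without the 60 min arrays, 3 without the 7 min arrays, 87 without the 15-16 min arrays, 0 with wild type arrays only, 3 with ppt1 arrays only, 15 at 2-fold or more and 5 at an adjusted p under 0.01. Leaving out 1 array gave 5 to 51. Recovered genes numbered 1 with quantile normalization, 20 in 1 fit with 5 times and 0 to 6 without 1 array. Genes that grew numbered 1 with quantile normalization, 3 with scaling to a common spread, 11 with genes that had all 10 values, 9 in the 10-array fit with group and strain, 59 in the fit with 5 times and 0 to 6 without 1 array. Persisted genes numbered 61 with quantile normalization, 108 with scaling and 57 to 270 without 1 array. They numbered 140 with no array shared between the early and the late comparison, though late against 0 min still shared arrays with both. Early against before gave 70 with quantile normalization, 139 with scaling and 61 to 319 without 1 array, and late against before 470, 483 and 197 to 910. The strain difference gave 0 to 1 without 1 array. Fits without arrays or on 1 strain had fewer samples, the count over genes with all 10 values fewer genes tested, and for the other changes the cause was not tested. Alternatives for early and late against before, and the fates in the 10-array group fit, were chosen after seeing the data. FUI1 kept its call in 21 of 22 settings, FUR4 and OPI3 in 19, MDH2 in 18 and HTA1 in 17. The labels give no replicate numbers to pair by; strain was a block throughout, and the fit with 5 times matches the strains by time. The number of arrays limits the precision.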

Other observations

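Purine and one-carbon genes had large late minus early differences that did not pass. ADE17, which catalyses the last steps of purine synthesis, read -0.41 and -0.96 (ppt1) and -1.46 and -1.45 (wild type) late. Its early values were 2.49 at 7 min and 0.08 at 15 min (ppt1) and 2.26 at 7 min and -0.43 at 16 min (wild type), and before the shift it read 3.42 (ppt1) and 2.53 (wild type). The difference was -2.17 ± 0.58 (limma adjusted p = 0.112), and late minus before was -4.05 ± 0.67 (adjusted p = 0.00247). SHM2, the cytosolic serine hydroxymethyltransferase, had the same order, with early values of 1.85 at 7 min and 0.16 at 15 min (ppt1) and 2.10 at 7 min and 0.33 at 16 min (wild type). In both genes the 15-16 min values were nearer to the late values than to the 7 min values. Of 18 measured purine synthesis genes 0 passed late against early, with a median of -0.32 and 16 negative, and 10 fell late against before. Of 17 one-carbon and glycine genes 0 passed, with a median of -0.18, and 10 fell late against before. Over all genes 0.739% passed late against early and 9.41% fell late against before. The median of the purine list was -0.08 without the 7 min arrays.

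The small stress protein HSP12 was lower at the later time within both phases. It read 1.01 at 30 min and -0.47 at 60 min (ppt1) and 1.76 at 30 min and -0.15 at 60 min (wild type), against 2.41 and 1.36 (ppt1) and 3.52 and 2.21 (wild type) early, with a late minus early of -1.84 ± 0.47 (adjusted p = 0.104).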
